A study of Rattus norvegicus with 24 samples.

Results

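A set of 6 genes of the rat cumulus-oocyte complex were followed through a course of ovulation-inducing hormones: Trib2, Rasd1, Myocd, Btbd3, Aif1l and Galm. They are 6 of the 13161 genes named on the arrays, and each was read by 1 probe. They were selected on their difference in signal between the arrays with and without human chorionic gonadotropin (hCG), where they lay among the largest falls. Those values are therefore given as a description with no test. The only test reported for them is that of GnRH alone against control. Its difference in means uses neither the GnRH+eCG nor the hCG arrays, but its SE and p use a spread estimated over all 24 arrays. Each complex, an oocyte with its cumulus granulosa cells, came from a sexually mature female Sprague Dawley rat, an outbred strain, and 24 rats gave 1 array each. There were 6 control rats, 6 given GnRH, 6 given GnRH followed by equine chorionic gonadotropin (eCG), and 6 given GnRH, eCG and then hCG, called here the hCG group. GnRH was thus common to the 3 treated groups and eCG to the last pair, and no source used here gives the time from a hormone to collection. RNA was amplified before labelling and read on 1-colour bead arrays.

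GnRH acts on the pituitary, eCG acts largely as follicle-stimulating hormone in rodents, and hCG acts on the luteinizing hormone receptor as the ovulatory surge does. In the follicle the surge signals through G proteins and cyclic AMP in mural granulosa cells, which release ligands of the epidermal growth factor receptor, and these pass the signal to the cumulus. The 6 genes act at different points of cell signalling and cell form. Trib2 is a pseudokinase, Rasd1 a Ras-like GTPase and Myocd a transcriptional coactivator. Btbd3 is a BTB-domain protein, Aif1l an actin-binding protein and Galm an enzyme of galactose metabolism.

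All 6 genes had their lowest group mean after hCG, between 3.2-fold (Btbd3) and 4.24-fold (Myocd) below GnRH+eCG. GnRH alone moved none of them past the test, and none of the 8082 probes tested. The signals were lower and not lost. Trib2, Rasd1, Myocd, Btbd3 and Aif1l were detected on all 24 arrays, and Galm on 2 of the 6 hCG arrays and on all 18 others. Because each array reads whole complexes, fewer cells of one type and less RNA per cell cannot be told apart.

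Markers of the labelled tissue were present on these arrays, though not all of them on every array. Inha and Fshr of granulosa cells and Zp3, Gdf9 and Bmp15 of the oocyte were detected on all 24. Of the other granulosa genes tested, Bmpr1b and Amh were detected on 22, Inhbb on 21 and Esr2 on 16. Of the other oocyte markers tested, Bcl2l10 and Zp1 were detected on 21 and Nlrp5 on 12. The remaining tested genes of both lists were detected on all 24. The share of probes detected on an array ran from 25.3% to 37.9%. Rats 1 to 12 had median deposited signals of 176.7 to 235.4, and rats 13 to 24 of 140.5 to 180.0. No source used here says whether these number ranges were separate batches. GnRH rats 5 and 16 stood apart from the other 4 GnRH rats: on the first principal component, which held 49.6% of the variance, they scored 19.7 and 19.0 against -28.3 to -18.2, and the hCG arrays scored 41 to 49.8. Results that rest on the GnRH group are given with and without these rats.

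Promoter sequences were available for 5 of the 6 genes and are shown because 4 of these share one short motif. They come from RefSeq, build GRCr8, and run from 250 bases before the annotated start to 50 bases after it, 5′ to 3′ on the strand of the gene. Trib2 is at chr6:44299045-44299344 (minus strand), Btbd3 at chr3:146065069-146065368 (plus), Aif1l at chr3:35626989-35627288 (plus), Galm at chr6:20641467-20641766 (minus) and Rasd1 at chr10:45267633-45267932 (minus). For Btbd3 and Rasd1 the window lies wholly inside the annotated locus of the gene and not at its 5′ end. The start used for these genes is thus an internal one. Capitals mark the forkhead core TAAACA or its reverse complement in the first 4 and the cyclic AMP response element core TGACG in Rasd1.
Trib2: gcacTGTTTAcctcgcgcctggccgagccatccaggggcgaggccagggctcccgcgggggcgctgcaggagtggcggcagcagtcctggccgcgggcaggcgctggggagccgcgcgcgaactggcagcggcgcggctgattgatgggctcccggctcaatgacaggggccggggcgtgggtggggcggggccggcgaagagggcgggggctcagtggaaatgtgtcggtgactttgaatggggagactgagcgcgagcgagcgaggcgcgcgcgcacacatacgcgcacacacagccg
Btbd3: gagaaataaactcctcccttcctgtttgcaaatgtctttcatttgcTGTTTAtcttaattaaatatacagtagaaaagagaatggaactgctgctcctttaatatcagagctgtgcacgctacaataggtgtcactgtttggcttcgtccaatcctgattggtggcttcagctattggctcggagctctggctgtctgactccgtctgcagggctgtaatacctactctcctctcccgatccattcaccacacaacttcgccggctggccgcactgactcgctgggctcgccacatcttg
Aif1l: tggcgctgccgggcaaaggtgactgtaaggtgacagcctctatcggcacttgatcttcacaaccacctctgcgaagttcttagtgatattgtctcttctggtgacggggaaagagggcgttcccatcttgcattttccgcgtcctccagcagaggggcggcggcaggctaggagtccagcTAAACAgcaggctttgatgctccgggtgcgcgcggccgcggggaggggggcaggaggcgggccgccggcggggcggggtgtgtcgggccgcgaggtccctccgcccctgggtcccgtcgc
Galm: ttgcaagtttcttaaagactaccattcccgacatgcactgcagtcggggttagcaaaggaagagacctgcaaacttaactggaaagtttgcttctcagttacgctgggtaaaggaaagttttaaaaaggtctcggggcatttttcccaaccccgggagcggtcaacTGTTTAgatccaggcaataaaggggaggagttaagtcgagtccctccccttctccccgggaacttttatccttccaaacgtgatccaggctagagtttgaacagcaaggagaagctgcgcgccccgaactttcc
Rasd1: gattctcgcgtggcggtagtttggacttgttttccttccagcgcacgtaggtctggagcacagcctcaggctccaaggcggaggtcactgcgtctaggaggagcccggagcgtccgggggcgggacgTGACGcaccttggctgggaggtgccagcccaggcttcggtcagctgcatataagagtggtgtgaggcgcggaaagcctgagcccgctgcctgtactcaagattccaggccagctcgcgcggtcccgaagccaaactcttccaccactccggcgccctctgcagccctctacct

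The forkhead core, the letters bound by FOXO and FOXL proteins among others, was in 4 of the 5 promoters, those of Aif1l, Btbd3, Galm and Trib2, and in 13.7% of all 33469 promoters of the same 300 bases, both strands searched. Its first base lay 70 bases before the annotated start in Aif1l, 84 in Galm, 204 in Btbd3 and 246 in Trib2, so the position was not shared. In Btbd3 it overlapped a GATA site, AGATAA, by 3 bases, and that site was in 11.6% of all promoters. TGACG was in Rasd1 and Aif1l and in 21.2% of all promoters, and the Sp1 site GGGCGG was in Trib2, Rasd1 and Aif1l and in 33.1%. CCAAT was in Btbd3 only, against 37.5% of all. GGAATG, the TEAD core, was in Galm (14.2% of all) and TGTGGT, the RUNX core, in Btbd3 (17.3%). None of the 5 windows held the full cyclic AMP response element TGACGTCA, which contains TGACG and was in 1.83% of all promoters, or the NR5A site AAGGTCA (4.61%). None held the AP-1 site TGANTCA (7.33%), the TATA box TATAAA (14.2%), the E-box CACGTG (6.42%) or the glucocorticoid receptor core AGAACA (20.7%). The same was true of the C/EBP palindrome TTGCGCAA (0.170%), the NRF1 palindrome (0.852%) and the CArG box (1.64%), the serum response factor site at which Myocd acts. The 16 motifs were chosen with the values of the 6 genes known, a match is not evidence of binding, and no source used here gives the build of the array.

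Trib2 belongs to the tribbles family, whose proteins link kinases to the ubiquitin ligase COP1. On the log2 scale of normalized signal the control rats gave 11.71, 12.29 and 12.52 (lowest, median and highest of 6). GnRH rats gave 10.68, 12.17 and 12.49, and GnRH+eCG rats 11.73, 12.13 and 12.48. After hCG the lowest, median and highest were 9.60, 10.07 and 10.37. No hCG rat reached the lowest rat of any other group, whereas the first 3 groups overlapped. The mean was 12.07 ± 0.29 (SD, n = 6) with GnRH+eCG and 10.04 ± 0.25 after hCG, a difference of -2.03 ± 0.26 (SE) or 4.09-fold. The gene is annotated at chr6:44274762-44299139 in GRCr8.

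Rasd1, also called Dexras1, is a glucocorticoid-inducible GTPase that acts on G protein signalling to adenylyl cyclase. Its control values were 10.73, 11.19 and 11.57, and its GnRH values 10.15, 10.62 and 11.01. They were 10.95, 11.10 and 11.61 with GnRH+eCG and 8.22, 9.36 and 10.17 after hCG. The hCG rats lay below every control and GnRH+eCG rat, but the highest of them was 0.01 above GnRH rat 16. The hCG values were also spread widely, with an SD of 0.66 against 0.24 with GnRH+eCG. Means of 11.17 and 9.31 gave a difference of -1.86 ± 0.22 (SE) between GnRH+eCG and hCG, or 3.63-fold. That difference was -1.42 among rats 1 to 12 and -2.30 among rats 13 to 24, the widest separation of these values among the 6 genes. Its locus is chr10:45265975-45275279.

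Myocd encodes myocardin, the coactivator of serum response factor known for switching on smooth and cardiac muscle genes. Control rats gave 10.70, 11.27 and 11.65, and GnRH rats 9.91, 11.21 and 11.56. The values were 9.86, 10.74 and 11.04 with GnRH+eCG and 7.84, 8.53 and 8.87 after hCG. All 6 hCG rats lay below the other 18, and the GnRH+eCG rats overlapped both earlier groups with 3 of 6 below every control rat. Its mean of 8.51 ± 0.37 (SD, n = 6) after hCG was 4.24-fold below the 10.60 ± 0.47 of GnRH+eCG, a difference of -2.08 ± 0.26 (SE), and 6.58-fold below control, the largest distance from control among the 6. Myocd lies at chr10:50332356-50426819.

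Btbd3, known in the mouse brain for orienting dendrites toward active inputs, had a lower mean in each group than in the one before. The control values were 10.62, 11.31 and 11.55, and those of GnRH 9.54, 10.85 and 11.09. With GnRH+eCG they were 9.59, 10.40 and 11.04, and after hCG 8.12, 8.65 and 9.35. Of the GnRH+eCG rats 5 of 6 lay below every control rat, and all 6 hCG rats lay below all 18 others. The hCG mean was 3.2-fold below GnRH+eCG (-1.68 ± 0.25, SE) and 5.81-fold below control (-2.54 ± 0.25). The gap between the groups was narrow, with the highest hCG rat 0.24 under the lowest GnRH+eCG rat. Btbd3 is annotated at chr3:146044053-146074189.

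Aif1l, a relative of the macrophage protein Aif1 that binds actin filaments, was the most variable gene in the GnRH group. Its control values were 9.67, 10.51 and 10.83, and its GnRH values 8.74, 10.32 and 11.14. They were 9.54, 10.23 and 10.58 with GnRH+eCG and 7.27, 8.36 and 8.99 after hCG. The hCG rats lay under every control and GnRH+eCG rat, and they overlapped the GnRH group through GnRH rat 5 alone, which at 8.74 was below the highest hCG rat. The SD was 0.90 in the GnRH group and 0.67 after hCG, against 0.38 with GnRH+eCG. The hCG mean was 2.00 ± 0.34 (SE) lower on the log2 scale, 4.01-fold. It lies at chr3:35627239-35651793.

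Galm, galactose mutarotase, converts beta-D-galactose to the alpha form that enters the Leloir pathway. Its control values were 8.42, 8.69 and 8.93, and its GnRH values 8.19, 9.07 and 9.13. The GnRH+eCG rats gave 8.63, 9.07 and 9.18, and the hCG rats 6.62, 6.93 and 7.28. The groups before hCG overlapped and the 6 hCG rats lay below all 18 others. The mean was 8.98 ± 0.23 (SD, n = 6) with GnRH+eCG and 6.93 ± 0.26 after hCG, a difference of -2.05 ± 0.16 (SE) or 4.15-fold. It was not above background on 4 of 6 hCG arrays, and the difference was -1.44 with quantile normalization and no background correction. Galm lies at chr6:20589775-20641516.

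**Figure D1:**
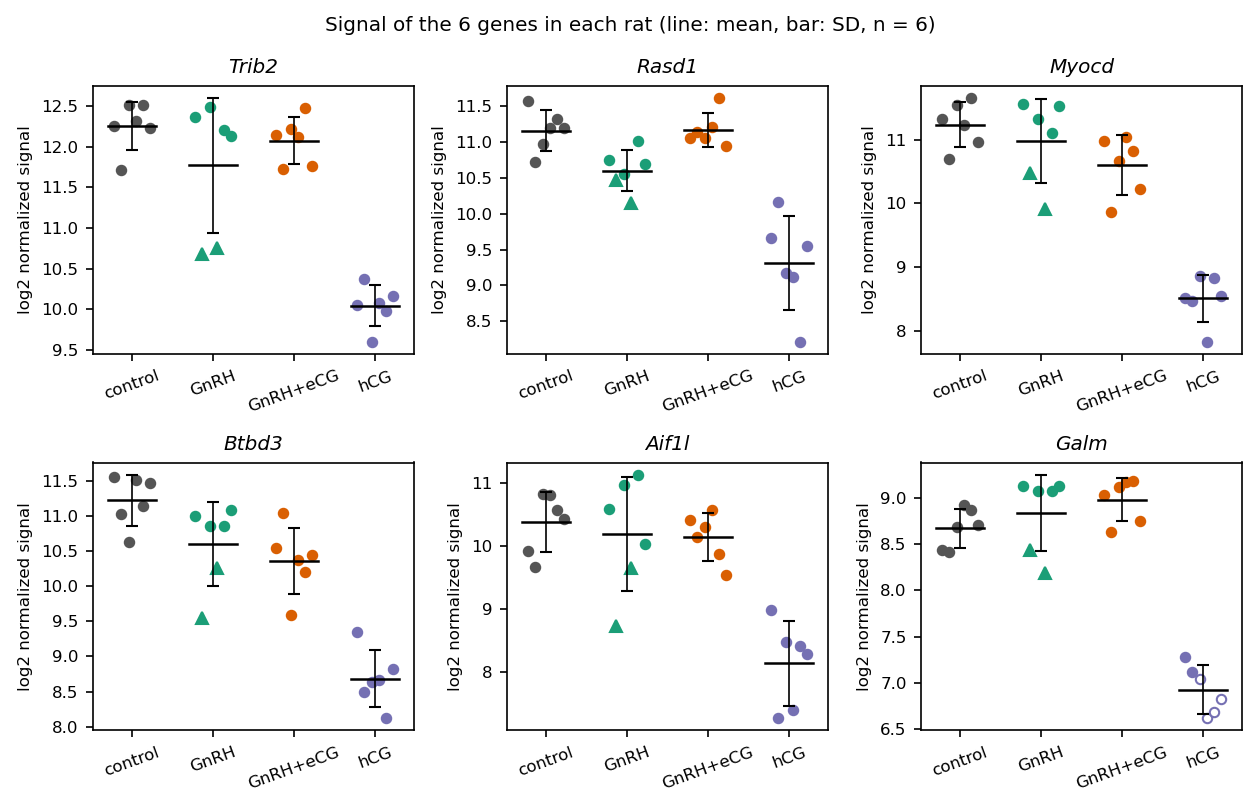
Normalized log2 signal (vertical axis) of each gene in each of 24 rats by hormone group (horizontal axis), with the mean as a line and the SD as a bar, n = 6 per group. The hCG points lie below all GnRH+eCG points in every panel, and the GnRH groups of Trib2 and Galm each show a separate low pair of rats.

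The rank among the 5515 named genes that were tested shows where the choice lies. In order of the difference between hCG and GnRH+eCG, Myocd was at rank 6, Galm at 7, Trib2 at 8, Aif1l at 9, Rasd1 at 12 and Btbd3 at 24. Over the other settings tried the rank ran from 4 to 23 for Galm, 14 to 47 for Btbd3 and 5 to 93 for Rasd1, each highest in number within rats 1 to 12, and from 4 to 13 for Trib2, Myocd and Aif1l, so single places in this order are not read. In the order as reported, the neighbours were Kcnk2 at rank 5 (-2.21), Cd83 at 10 (-1.99), Bcl2l10 at 11 (-1.87), Reep6 at 13 (-1.84), Pfkm at 23 (-1.68) and Unc5c at 25 (-1.67). All 6 genes had every hCG value below every GnRH+eCG value, as did 11.1% of the 8082 probes tested, and nothing is read from this since the contrast chose them. Against the control rats the same held for 6 of 6 genes and 12.7% of probes, and against the GnRH rats for 4 of 6 and 8.59%. Against the GnRH rats other than 5 and 16 it held for 6 of 6 and 19.3%. Trib2, Myocd, Btbd3 and Galm had all 6 hCG values below the other 18 arrays, as did 4.54% of probes. These comparisons share the hCG arrays.

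GnRH alone against control was the comparison whose difference in means had no part in choosing the genes. Its SE and p rest on the spread of all 4 groups, so the hCG arrays enter them. For Rasd1 the SE of 0.22 became 0.17 without hCG rat 23. None of the 6 passed the test (limma, Benjamini-Hochberg over 8082 probes), beside a background of 0% called and 961 probes with an unadjusted p under 0.05. The differences were -0.62 ± 0.25 (SE) for Btbd3 and -0.56 ± 0.22 for Rasd1, each with an adjusted p of 0.390 in limma. Trib2 was at -0.49 ± 0.26 (adjusted p = 0.443) and Myocd at -0.25 ± 0.26 (0.688). Aif1l was at -0.19 ± 0.34 (0.834) and Galm at 0.16 ± 0.16 (0.671). For Rasd1, 4 of 6 GnRH rats lay below every control rat, and for each of the others at most 2 did.

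The GnRH means rested in part on rats 5 and 16. Both lay below the other 4 GnRH rats for all 6 genes, as they did for 26% of the 8082 probes and for 51.1% of the 1776 probes lower after hCG. Trib2 was 10.68 and 10.75 in them against 12.13 to 12.49 in the other 4. Galm was 8.44 and 8.19 against 9.07 to 9.13, Myocd 10.47 and 9.91 against 11.10 to 11.56, and Btbd3 9.54 and 10.26 against 10.85 to 11.09. Aif1l was 8.74 and 9.66 against 10.04 to 11.14, and Rasd1 10.47 and 10.15 against 10.55 to 11.01. The gap to the others was smallest for Rasd1. Without them the difference from control became 0.04 for Trib2, 0.15 for Myocd, 0.31 for Aif1l, 0.43 for Galm, -0.28 for Btbd3 and -0.41 for Rasd1, with an adjusted p of 0.999 each in limma, so the sign of Trib2, Myocd and Aif1l turned. In the same rats the summed signal of 7 theca and stroma markers was 7025 and 5395 against 693 to 2009. Within that list Col1a1, Col1a2, Col3a1, Lum and Dcn were higher in both rats than in the other 4. Cyp17a1 was lower, at 6.28 and 6.25 against 6.65 to 7.14, and Nr2f2 overlapped, at 6.97 and 6.93 against 6.73 to 7.03. The sum of 17 granulosa genes was 20332 and 19596 against 35853 to 45870. The summed signal of 8 oocyte markers was 4785 and 3550 against 4886 to 7812. That of 5 ovulatory cumulus genes was 775 and 596 against 412 to 445, and 5106 to 22571 in the hCG rats. Among these, Ereg was 8.58 and 7.93 against 6.33 to 6.52, whereas Has2 was 6.49 and 6.25 against 6.54 to 6.82. The part of these markers in the values of the 6 genes was not tested.

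**Figure D2:**
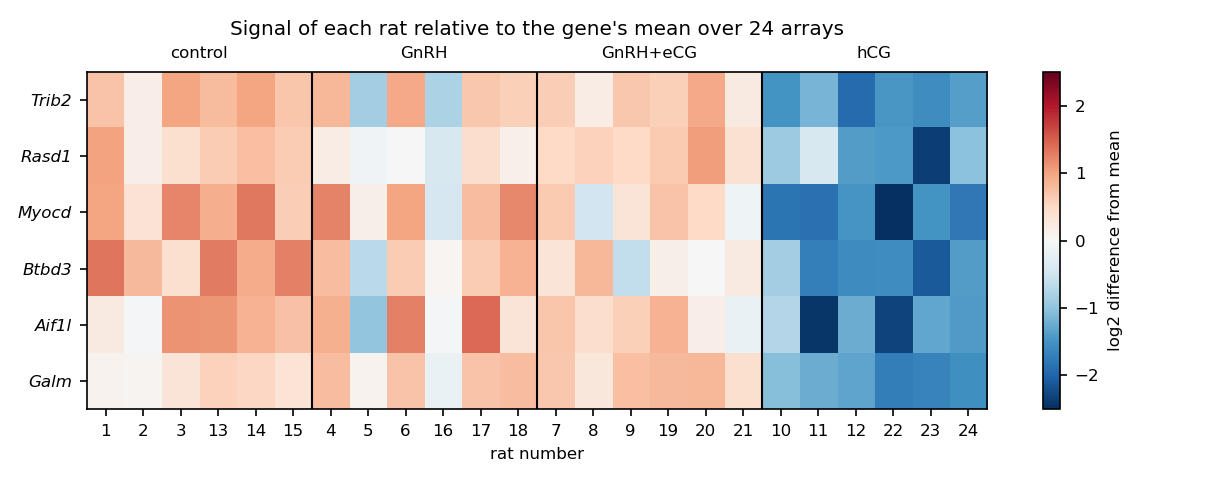
Signal of the 6 genes (rows) in each rat (columns, by number and group) as the log2 difference from the gene's mean over 24 arrays, in red above and blue below. The hCG columns are blue throughout, and among the GnRH columns rats 5 and 16 are lower than the other 4 for every gene.

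Before hCG the mean steps of the 6 genes differed in sign, a description with no test. From GnRH to GnRH+eCG the difference was 0.57 ± 0.22 (SE) for Rasd1, 0.30 ± 0.26 for Trib2 and 0.14 ± 0.16 for Galm. It was -0.38 ± 0.26 for Myocd, -0.24 ± 0.25 for Btbd3 and -0.05 ± 0.34 for Aif1l. Without GnRH rats 5 and 16 the step was -0.22 for Trib2 and -0.12 for Galm, both with the sign turned, and 0.42 for Rasd1. It was then -0.78 for Myocd, -0.59 for Btbd3 and -0.54 for Aif1l, so only Rasd1 had a positive step. GnRH+eCG against control gave -0.86 ± 0.25 for Btbd3 and -0.63 ± 0.26 for Myocd, whereas Rasd1 was at 0.01, Trib2 at -0.18, Aif1l at -0.23 and Galm at 0.31. Btbd3 and Myocd thus had lower means before hCG, and Galm a higher one. Groups overlapped for every gene in both comparisons, apart from Myocd at the eCG step without rats 5 and 16, and these comparisons use arrays of the choice and carry no test.

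**Figure D3:**
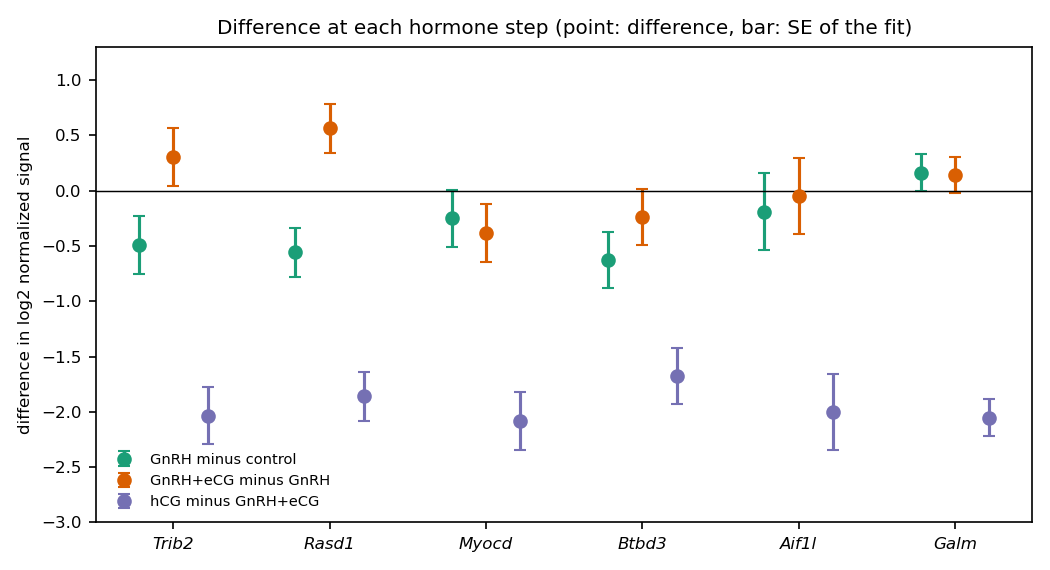
Difference in log2 normalized signal (vertical axis) at each hormone step for each gene (horizontal axis), with the SE of the fit as a bar, all 6 GnRH rats included. The hCG steps lie between -2.08 and -1.68, and the earlier steps between -0.62 and 0.57.

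Across all 24 arrays the profiles of the 6 genes differed in how close they were. After each was centred on its own mean, the root mean square difference was smallest between Trib2 and Galm, at 0.376 on the log2 scale, and largest between Rasd1 and Aif1l, at 0.733. The named gene nearest to Trib2 was Bmpr1b (0.298), a bone morphogenetic protein receptor, followed by RragB (0.298) and Fn3krp (0.310). The median difference from Trib2 over all 8082 probes tested was 0.995. Bmpr1b was also nearest to Myocd (0.397), ahead of Sostdc1 (0.415) and Slc27a6 (0.441), and second for Aif1l (0.495), behind Map2k6 (0.480) and ahead of Unc5c (0.50). Sostdc1, a secreted antagonist of bone morphogenetic proteins, led for Btbd3 (0.349), with Ptges at 0.383 and Adtrp at 0.385. Rasd1 was nearest to Pdcd4 (0.331), Psen2 (0.377) and Alms1 (0.390), and Galm to Nme3 (0.298), Dhodh (0.324) and Dync2i2 (0.353). The arrays share the step after hCG, which chose the 6 genes, so likeness here is a description.

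Genes related to the 6 by family, pathway, response or cell type were taken as 8 lists, of which 72 genes were tested. After hCG 18 of them rose and 17 fell at an adjusted p under 0.05 (limma), against 17.8% of all probes higher and 22% lower, 39.8% together, and none passed for GnRH against control. Around Trib2, 4 of 7 tested genes of the tribbles and COP1 list rose and 0 fell, with a list median of 0.71 beside -0.04 for all probes. Cebpb, a C/EBP factor needed in granulosa cells for ovulation, rose by 1.98 ± 0.31 (SE), Map2k1 by 0.89 ± 0.24 and Foxo3 by 0.75 ± 0.22. Trib1, the relative of Trib2, was 0.71 ± 0.27 higher with an adjusted p of 0.0395. That call was lost without any one of GnRH+eCG rats 7, 9, 19 or 20 or hCG rats 10, 12, 22 or 24, with an adjusted p of 0.0562 to 0.106. With median scaling neither Trib1, at 0.50, nor Foxo3, at 0.45, passed (adjusted p = 0.104 and 0.0590), and with signals not normalized they were at 0.37 and 0.32 (0.292 and 0.242). Trib3, Cop1 and Cebpa were among 7 listed genes detected on no array.

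Around Myocd, 2 of 8 tested genes of the serum response factor list rose and 0 fell, with a median of 0.18, beside the 39.8% of all probes called. Tagln2 rose by 1.28 ± 0.20 (SE) and Tpm4, a tropomyosin, by 0.85 ± 0.13. Srf itself was at -0.15 ± 0.10 (adjusted p = 0.275) and Myl9, a myosin light chain, at -0.52 ± 0.34 (0.232). The muscle genes Tagln, Cnn1, Mylk, Smtn and Lmod1 were detected on no array. In the same list Myl9, Tpm4 and Cald1 were detected on all 24 arrays, as was Myocd, and Csrp1 and Tagln2 on 23. Of the smooth muscle markers only Des was tested, which did not pass, and Cnn1, Lmod1 and Synpo2 were detected on no array.

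For Rasd1, 3 of 12 tested genes of the G protein and adenylyl cyclase list rose and 2 fell, with a median of 0.10. Of all probes 17.8% were higher and 22% lower. The phosphodiesterase Pde4d rose by 1.38 ± 0.22 (SE), the protein kinase A subunit Prkar1a by 0.78 ± 0.15 and Gnai3 by 0.32 ± 0.08. Adcy5, an adenylyl cyclase, fell by 1.01 ± 0.28. Prkar2b, a regulatory subunit of protein kinase A, was at -0.38 ± 0.15 with an adjusted p of 0.0482. That call was lost without any one of control rats 2, 13 or 15, GnRH rat 18, GnRH+eCG rats 7, 9, 19 or 20, or hCG rats 11, 22, 23 or 24 (adjusted p = 0.0503 to 0.109), and with median scaling it was at -0.15 (0.593). Of 9 tested glucocorticoid-responsive genes 5 rose and 0 fell, with a median of 1.43, whereas the glucocorticoid-inducible Rasd1 had its lowest mean in the same arrays. The 4 that did not pass were Hsd11b1 at 1.68 (adjusted p = 0.0550 in limma), Dusp1 at 1.43 (0.123), Tsc22d3 at -0.35 (0.182) and Sgk1 at -0.03 (0.943). Errfi1, which restrains the epidermal growth factor receptor, rose by 3.22 ± 0.52. Klf9 rose by 1.44 ± 0.31 and Zfp36, an mRNA-destabilizing protein, by 0.97 ± 0.32. The clock gene Per1 was not above background on any GnRH+eCG array and was at least 3.29-fold higher after hCG (adjusted p = 5.14e-09). That bound is the hCG mean over the lowest signal among detected probes, or the probe's own signal where that was higher.

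The lists of Aif1l, Galm and Btbd3 stand beside the same shares of all probes, 17.8% higher and 22% lower. Of 8 tested actin-binding genes 3 rose and 1 fell, with a median of 0.13. Ezrin, Ezr, rose by 1.38 ± 0.24 (SE), Actn4 by 1.3 ± 0.26 and cortactin, Cttn, by 0.57 ± 0.11. With median scaling Cttn was at 0.30 (adjusted p = 0.0543) and with signals not normalized at 0.17 (0.376). Pls1, an actin bundler, was not above background on any hCG array and was at least 1.76-fold lower (adjusted p = 0.00636). Aif1 was at -0.48 ± 0.38 (adjusted p = 0.340). Of 5 tested genes around galactose and glucose phosphates 3 fell and 0 rose, with a median of -0.42. Gpi, glucose phosphate isomerase, fell by 0.71 ± 0.15, a call lost within rats 1 to 12 (adjusted p = 0.126 in limma). Ugp2, which makes UDP-glucose, fell by 0.42 ± 0.11, a call lost with median scaling (-0.34, adjusted p = 0.0906). It was also lost within rats 1 to 12 and within rats 13 to 24 (adjusted p = 0.168 and 0.0829 in limma). Galt, the uridylyltransferase of the Leloir pathway, was lower by 0.66 ± 0.22 (adjusted p = 0.0200). That call was lost without GnRH+eCG rat 20 (adjusted p = 0.0513) and within rats 1 to 12 (-0.49, adjusted p = 0.380 in limma). Of 6 tested genes of the BTB and cullin list 1 fell, Klhl9, by 0.43 ± 0.14, and 0 rose. That call was lost with median scaling (-0.33, adjusted p = 0.0721) and within rats 13 to 24 (-0.18, 0.466).

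Genes of follicle growth in granulosa cells formed the list with the most genes tested. Of 17 tested genes 10 fell, 1 rose and 6 did not pass, with a median of -0.95, beside 22% of all probes lower and 17.8% higher. Inhbb, the activin and inhibin beta B subunit, fell by 2.47 ± 0.33 (SE), Bmpr1b fell by 1.70 ± 0.27 and Amhr2, the anti-Müllerian hormone receptor, fell by 1.63 ± 0.20. Esr2, estrogen receptor beta, was at least 1.77-fold lower (adjusted p = 0.00404). Igf1r rose by 0.73 ± 0.20.

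Markers of the cells in a complex moved with the same step, at which 22% of all probes were lower and 17.8% higher. All 8 tested oocyte markers fell, with a median of -1.41, and their summed signal was 3637 to 14210 in the GnRH+eCG rats and 1934 to 3123 after hCG. All 5 tested ovulatory cumulus genes rose, with a median of 4.18 and summed signals of 490 to 1227 and of 5106 to 22571. Of 7 tested theca and stroma markers 1 fell, Cyp17a1, by 1.83 ± 0.57 (SE), and their sums were 2254 to 4265 and 2518 to 5530, with Insl3, Pdgfra and Tcf21 detected on no array. Cyp17a1 was detected on 9 of 24 arrays. Its call was lost within rats 1 to 12 and within rats 13 to 24 (adjusted p = 0.132 and 0.141 in limma). Of 3 tested leukocyte markers 1 rose, Cd14, and their sums overlapped, at 331 to 1464 and 419 to 910, with Ptprc, Itgam and Laptm5 detected on no array. The sums of the single tested endothelial and erythrocyte markers also overlapped between the groups. The part of these markers in the lower signals of the 6 genes was not tested.

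**Figure D4:**
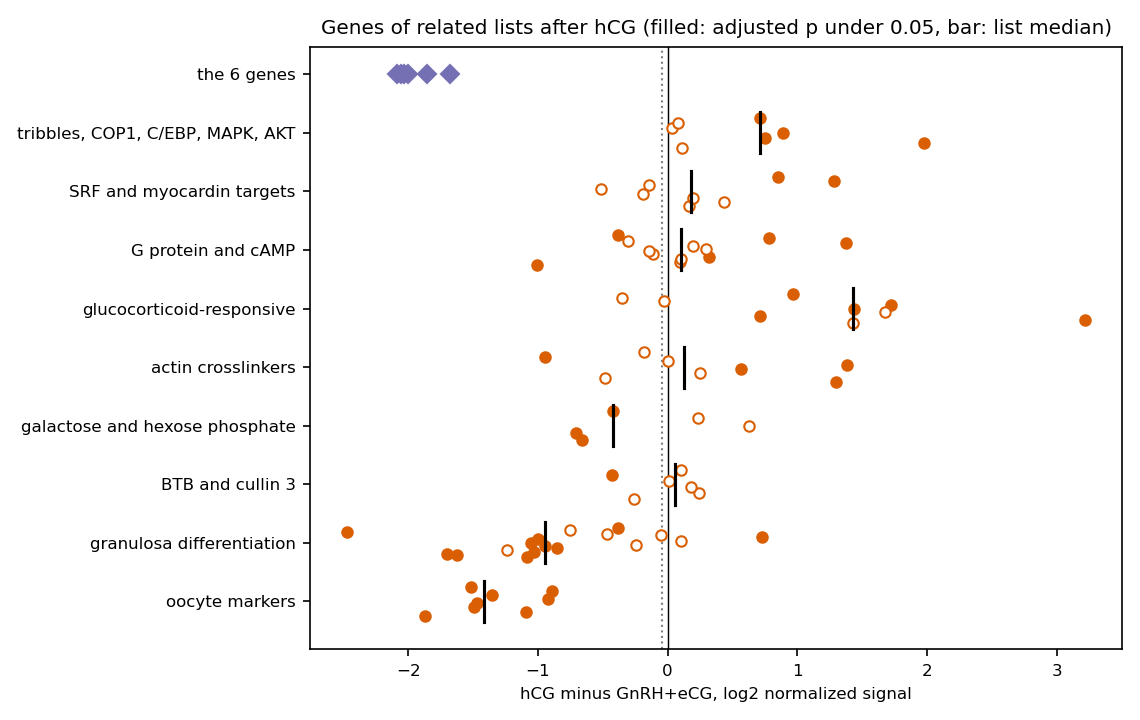
Difference between hCG and GnRH+eCG in log2 normalized signal (horizontal axis) for the 6 genes (diamonds, not tested), each tested gene of the 8 related lists and the oocyte markers (rows), as fitted. Points are filled where the adjusted p was under 0.05, bars are list medians and the dotted line is the median of all probes, -0.04; the 6 genes lie between -2.08 and -1.68, and medians of the related lists run from -0.95 (granulosa genes) to 1.43 (glucocorticoid-responsive genes).

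Within both ranges of rat numbers, 3 rats per group, every one of the 6 genes was lower after hCG than with GnRH+eCG, with no overlap. Both ranges are parts of the arrays that chose the genes, so nothing is read from this. The share of all probes with no overlap at 3 rats per group was not counted. The differences among rats 1 to 12 and among rats 13 to 24 were -2.02 and -2.05 for Trib2, -1.88 and -2.29 for Myocd, and -2.04 and -1.96 for Aif1l. They were -1.56 and -1.79 for Btbd3 and -1.78 and -2.33 for Galm. For Aif1l and Trib2 the values in both ranges were thus close, and for Rasd1 and Galm the larger difference was in rats 13 to 24. GnRH against control in the same ranges was -0.32 and -0.66 for Trib2, -0.50 and -0.62 for Rasd1, -0.07 and -0.43 for Myocd and -0.61 and -0.64 for Btbd3. It was -0.04 and -0.33 for Aif1l and 0.36 and -0.04 for Galm, whose sign turned.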

How the data were processed

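Intensity values per probe on a linear scale, as deposited, were made by the authors in BeadStudio according to the submitters' processing notes, and no source used here gives its version. The deposited detection values are a fraction between 0 and 1, higher at higher signal (Spearman 0.991 to 0.997) and were read as 1 minus the detection p. RNA was extracted with PicoPure and amplified, per the labels. Of 22226 probes, 21946 matched between the deposited tables by identifier and 280, joined on their signals (tolerance 0.002, log2), were tested but not named. Platform symbols, checked against RefSeq, named 13518 probes.

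Signals were normalized with limma 3.58.1 (neqc, offset 16) in R 4.3.3. The 8082 probes detected (p under 0.01) on at least 6 of 24 arrays were fitted with 1 mean per group (20 residual degrees of freedom), with eBayes and Benjamini-Hochberg adjustment at 0.05, and the code was tested on simulated data. Groups came from the labels, with 6 rats each. The labels give 1 numbered rat per array, so p-values measure the spread between rats, and the number of arrays limits the precision.

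The 6 genes, the related lists and the motifs were chosen with earlier results of these data known. Named genes were the 6, the 3 nearest named probes of each by root mean square difference, up to 4 genes of each list by smallest adjusted p in hCG against GnRH+eCG, and the neighbours in rank. Genes named beyond this rule were chosen after their values were seen. They were Prkar2b, Aif1, Igf1r, Des, Cyp17a1, Cd14, Hsd11b1, Dusp1, Tsc22d3 and Sgk1. To these belong also Cald1, Csrp1, Ereg, Has2, Col1a1, Col1a2, Col3a1, Lum, Dcn and Nr2f2. The tissue markers Inha, Fshr, Amh, Zp1, Zp3, Nlrp5, Gdf9 and Bmp15 and the genes detected on no array were also chosen in this way. Alternatives covered normalization, background, offset, detection filter, rat number ranges, array weights, rats 5 and 16, and each rat left out.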

Additional observations from a re-analysis of the deposited data

Results flagged for a closer look

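The Trib2 value of control rat 2 lay far from the other 5 control rats. It was 11.7 on the log2 scale and the nearest control rat was at 12.2, a gap that made up 0.650 of the whole range of the group, above Dixon's critical value for 6 samples. Of 24 sets of 6 values examined, 1 was marked in this way, and chance marks about 1 in 20.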

How the results depend on the processing

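Of 35 settings, 24 left out 1 rat each. The lower signal of the 6 genes after hCG kept its sign in every setting. Each setting used arrays that chose the genes, so this is a description. Only Galm moved by more than the SD within the GnRH+eCG and hCG groups (pooled, 0.247): it was -1.44 with quantile normalization, -1.49 with median scaling, -1.62 with signals not normalized, -1.79 with an offset of 50, -1.78 within rats 1 to 12 and -2.33 within rats 13 to 24. The cause was not tested. Rasd1 moved further in size, to -1.42 and -2.30 within the ranges, against a pooled SD of 0.494. For GnRH against control no gene of the 6 passed in any setting (lowest adjusted p 0.191, Rasd1), and signs turned as follows. Without GnRH rats 5 and 16 the difference was 0.0388 for Trib2, 0.146 for Myocd and 0.308 for Aif1l. With array weights it was 0.10 for Myocd and 0.0924 for Aif1l, and Galm was at -0.0366 within rats 13 to 24. Leaving out 1 rat gave Aif1l -0.38 to 0.10, the latter without GnRH rat 5. Probes past the threshold for hCG against GnRH+eCG numbered 3216 and fell to 1013 within rats 1 to 12 and 1564 within rats 13 to 24, where fewer rats were used. Related genes numbered 8 and 10 higher and 5 and 7 lower there, against 18 and 17. Signals not normalized moved the median of all probes to -0.16 and the split of calls to 582 higher and 1917 lower, from 1440 and 1776. In that setting Btbd16 was at -0.0257 and Btbd7 at -0.0459, and within rats 1 to 12 Aif1 was at 0.227, each reversed and not past the threshold. Of 37 named genes of the lists followed, 13 had the same call throughout, and 9 had no value when detection on 12 arrays was required. Of the 30 with a call, 16 lost it within rats 1 to 12, 14 within rats 13 to 24, 6 with median scaling, 4 with signals not normalized and 2 with no filter. Map2k1, Foxo3, Trib1, Gnai3, Adcy5, Prkar2b, Zfp36, Esr2, Ugp2 and Cyp17a1 lost it within both ranges. No paired analysis was possible because no rat number occurs in more than 1 group. Low signals, as for Galm after hCG, lie near background and limit the size that can be read.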
